A study of Mus musculus with 6 samples.

Results

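The 10 genes described here act on phosphate, which builds bone mineral, on pyrophosphate, which blocks it, or on other control of mineral. They were chosen by name: Alpl, Phospho1, Smpd3, Enpp1, Slc20a1, Slc20a2, Mgp, Phex, Fgf23 and Galnt3. All 10 were found among 22824 rows per library, and all 10 passed the low-value filter and were tested. RNA of C57BL/6 mouse femurs was sequenced in 6 libraries, 3 per group. The OE mice carried R26-Wnt7b, an allele at the R26 locus that Cre switches on, together with 9.6kb DMP1-Cre, and per the labels all were homozygous. The Ctrl mice were R26-Wnt7b littermates without the Cre. Dmp1 sequence drives Cre in osteocytes and mature osteoblasts. Age, sex and any pooling of animals are not stated, and no label ties a library to its own animal. The Y-linked gene Ddx3y, given below, differed between libraries of the same group, so sex may differ among them. The p-values rest on the spread of these samples alone, and that spread may be technical in part.

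Mineral first forms in vesicles that bud from osteoblasts and hypertrophic chondrocytes, and then spreads along collagen. Phosphate for it is freed inside the vesicle by PHOSPHO1 and outside by the alkaline phosphatase encoded by Alpl, which also destroys pyrophosphate made by ENPP1. Osteocytes govern the phosphate of the whole body by secreting FGF23, a hormone that makes the kidney excrete phosphate, and PHEX acts to keep that hormone low.

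Several features of the libraries bear on every value below. FPKM is a fragment count divided by transcript length and by the size of the library, so levels of different genes can be set side by side. Absolute depth is unknown, and judged by the steps of low values, libraries differed in depth by up to 1.18 times. Wnt7b, measured first as a check of the labels, reached 2.49, 0.661 and 0.295 FPKM in OE 1, 2 and 3, but 0.909 in the library labelled Ctrl 1, against 0.00833 in Ctrl 2 and a listed 0 in Ctrl 3. The library labelled Ctrl 1 therefore lies inside the OE range of the gene that defines the groups, and group differences are given with and without it. The mean log2(FPKM + 1) of 7 osteoblast markers was 6.28, 5.86 and 5.45 for OE 1 to 3, but 5.80, 2.90 and 2.89 for Ctrl 1 to 3. The femurs are labelled as freed of cartilage and marrow, yet 9 cartilage markers summed to 270 to 555 FPKM in the OE libraries, with 16.4 to 341 in Ctrl, and 7 neutrophil markers to 55305 to 154775 in OE and 95135 to 131028 in Ctrl. Of the cell type markers examined, only Myocd, a smooth muscle factor, was listed at 0 in any library, which was Ctrl 2. In such bulk RNA, fewer cells of a type and less RNA per cell cannot be told apart.

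With all 6 libraries, none of the 10 genes differed between the groups at an adjusted p of 0.05 by limma, a linear model fitted across 12177 genes, where 0% of all genes passed. At an unadjusted p under 0.05 there were 2 members, Smpd3 and Phex, both higher in OE, while 4.12% of all genes were higher at that threshold. The median difference of the members was 0.41 in log2(FPKM + 1), against -0.04 for all genes tested, with 7 positive and 3 negative. In 1 member, Smpd3, the lowest OE library exceeded the highest Ctrl library, as it did in 4.59% of all genes. In the other 9 the groups overlapped, and in those same 9 the lowest OE library did not exceed the one labelled Ctrl 1, which was so in 78.8% of all genes.

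**Figure D1:**
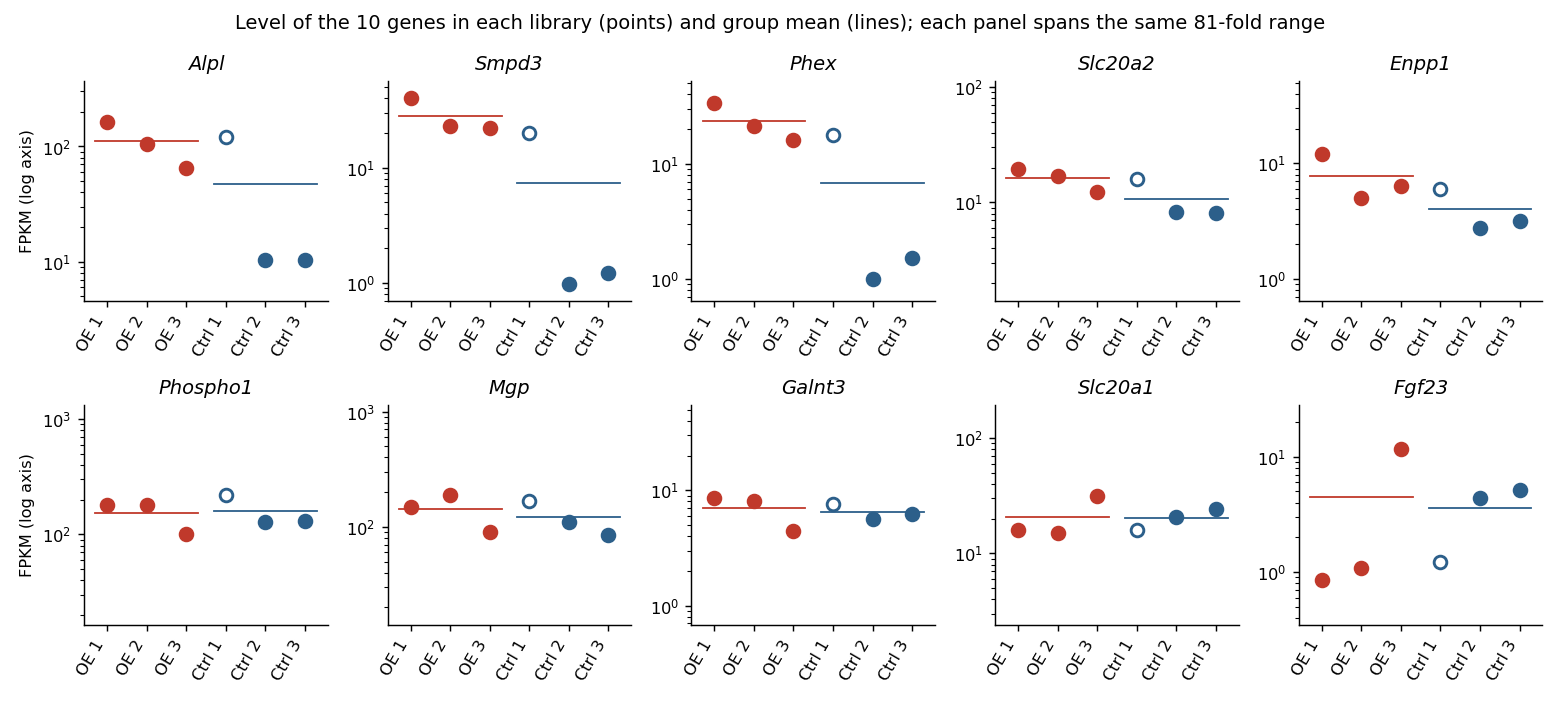
FPKM on log axes for each of the 10 genes, with OE libraries in red, Ctrl libraries in blue, the library labelled Ctrl 1 as an open circle, and lines at the group means. In Alpl, Smpd3, Phex, Slc20a2 and Enpp1, Ctrl 2 and Ctrl 3 lie below the other 4 libraries, while Fgf23 and Slc20a1 are highest in OE 3.

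The members followed 3 patterns over the libraries. In 5 of 10, namely Alpl, Smpd3, Phex, Slc20a2 and Enpp1, the 2 lowest libraries were Ctrl 2 and Ctrl 3, an order found in 16.7% of all genes. In 2 of 10, Fgf23 and Slc20a1, OE 3, Ctrl 2 and Ctrl 3 all lay above OE 1, OE 2 and the library labelled Ctrl 1, an order found in 11.6% of all genes. Phospho1, Mgp and Galnt3 followed neither, and their highest library exceeded their lowest by 2.17, 2.21 and 1.95 times. These orders were described after the values were seen and do not follow the group labels.

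The sequence just before the start of transcription is shown for 4 members because they differ in these patterns: Alpl and Phex from the first, Fgf23 from the second, and Phospho1 from the third. Each run is the 250 bases before the RefSeq start on GRCm38.p6, 5′ to 3′ on the strand of the gene. Capitals mark matches to 3 motifs searched on both strands with overlaps allowed: TGTGGT, the core bound by RUNX factors such as RUNX2, AGATAA, bound by GATA factors of blood cells, and CTTTGA, part of the site of the TCF/LEF factors of Wnt signalling.
Alpl, chr4:137796385-137796634, minus strand: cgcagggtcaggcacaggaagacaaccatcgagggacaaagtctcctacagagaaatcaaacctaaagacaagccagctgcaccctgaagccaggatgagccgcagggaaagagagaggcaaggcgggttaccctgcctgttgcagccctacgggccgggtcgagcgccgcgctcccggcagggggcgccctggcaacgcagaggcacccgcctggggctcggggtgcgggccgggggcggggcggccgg
Phex, chrX:157415287-157415536, minus strand: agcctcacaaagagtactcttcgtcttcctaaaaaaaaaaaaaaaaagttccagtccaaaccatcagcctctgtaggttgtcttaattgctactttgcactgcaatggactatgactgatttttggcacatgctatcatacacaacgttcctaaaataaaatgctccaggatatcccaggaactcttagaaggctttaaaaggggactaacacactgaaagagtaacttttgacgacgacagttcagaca
Phospho1, chr11:95824250-95824499, plus strand: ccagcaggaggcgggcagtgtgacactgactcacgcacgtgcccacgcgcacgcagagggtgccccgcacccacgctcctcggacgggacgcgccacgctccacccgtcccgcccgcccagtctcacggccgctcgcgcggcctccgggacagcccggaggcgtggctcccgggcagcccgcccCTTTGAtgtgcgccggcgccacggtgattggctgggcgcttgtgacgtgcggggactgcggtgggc
Fgf23, chr6:127072652-127072901, plus strand: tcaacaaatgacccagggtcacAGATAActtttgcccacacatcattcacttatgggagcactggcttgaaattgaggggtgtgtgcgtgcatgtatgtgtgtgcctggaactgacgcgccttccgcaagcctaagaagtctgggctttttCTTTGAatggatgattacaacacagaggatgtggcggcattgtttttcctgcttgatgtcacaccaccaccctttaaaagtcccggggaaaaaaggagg
The Alpl and Phex windows shown hold no match. Counted from the start, Fgf23 holds AGATAA at -228 and CTTTGA at -99, and Phospho1 holds CTTTGA at -66. Among 32851 promoter windows of this length, 14.0% hold the RUNX letters, 9.99% the GATA letters and 13.8% the TCF/LEF letters, on either strand. G and C make up 75.6% of the Phospho1 window and 68.4% of the Alpl window, but 48.4% of Fgf23 and 39.2% of Phex, beside a median of 52.4% over all windows. The matches do not divide the members by pattern. Enpp1, of the first pattern, holds the RUNX letters at -144 and the TCF/LEF letters at -247 and -211. Slc20a1, of the pattern of Fgf23, holds the RUNX letters at -77 in 1 of its 2 windows and no GATA letters, and Galnt3 holds none. The RefSeq table gave windows for 7 of the 10 members, and a letter match is a description, not a binding site.

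Among the enzymes that free phosphate, Alpl and Smpd3 separated the libraries widely and Phospho1 did not. Alpl (ENSMUSG00000028766, chromosome 4, 137741733 to 137796384, minus strand, GRCm38, 8 annotated transcripts) encodes the tissue-nonspecific alkaline phosphatase, held on the cell and vesicle surface by a lipid anchor. It measured 164, 106 and 64.5 FPKM in the OE libraries, with 120.1, 10.3 and 10.4 in Ctrl 1 to 3. The groups overlap, since the library labelled Ctrl 1 exceeds OE 2 and OE 3, and the 2 remaining Ctrl libraries are far below all others. The difference was 2.07 in log2(FPKM + 1) (SE 0.93, limma adjusted p = 0.554). Without the library labelled Ctrl 1 it was 3.21 (SE 0.37, adjusted p = 0.00969).

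Smpd3 (ENSMUSG00000031906, chromosome 8, 106252548 to 106337988, minus strand, 2 transcripts) encodes neutral sphingomyelinase 2, which splits sphingomyelin of the membrane and so releases phosphocholine, a substrate of PHOSPHO1. Its values were 40.2, 22.9 and 21.9 FPKM in the OE libraries, with 20.1, 0.979 and 1.23 in Ctrl 1, 2 and 3. No Ctrl library reached the lowest OE library, although the library labelled Ctrl 1 came close to it. Smpd3 had the widest range of the 10 members, with its highest library 41.0 times its lowest. It differed by 2.64 (SE 0.88, unadjusted p = 0.0207, limma adjusted p = 0.554), and by 3.75 (SE 0.28, adjusted p = 0.00289) without the library labelled Ctrl 1.

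Phospho1 (ENSMUSG00000050860, chromosome 11, 95824499 to 95832140, plus strand, 3 transcripts) encodes the phosphatase that takes phosphate from phosphocholine and phosphoethanolamine inside vesicles. It measured 181, 181 and 101 FPKM in the OE libraries, with 218, 129 and 132 in Ctrl 1, 2 and 3. It was the most abundant of the 10 members in 5 of the 6 libraries, also in Ctrl 2 and Ctrl 3 where osteoblast markers were low. Its group means of 154 ± 46.6 in OE and 159 ± 50.6 FPKM in Ctrl (SD, n = 3) differ by less than the spread between libraries. The difference was -0.05 (SE 0.32, limma adjusted p = 0.963) and turned to 0.19 without the library labelled Ctrl 1, to 0.23 without OE 3, to 0.0432 with trimmed-mean scaling and to 0.0497 with scaling without marrow and muscle genes, none of which passed.

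The gene for the pyrophosphate-forming enzyme was lowest in Ctrl 2 and Ctrl 3, over a smaller range than Alpl or Smpd3. Enpp1 (ENSMUSG00000037370, chromosome 10, 24637914 to 24712159, minus strand, 5 transcripts) encodes the ectoenzyme that cuts ATP outside the cell into AMP and pyrophosphate. It measured 11.97, 5.06 and 6.31 FPKM in the OE libraries, with 6.05, 2.77 and 3.16 in Ctrl 1 to 3. OE 1 stands above the rest, and the library labelled Ctrl 1 falls between OE 2 and OE 3. The difference was 0.79 (SE 0.35, limma adjusted p = 0.554), and 1.07 (SE 0.33, adjusted p = 0.15) without that library. By root-mean-square distance of centred log2 levels, Enpp1 lay nearer the smooth muscle (0.331) and endothelial (0.355) lists than the osteoblast list (0.946). The osteoclast list lay at 0.384. Slc20a1, Slc20a2, Phospho1, Mgp, Galnt3 and Fgf23 were also nearer the smooth muscle and endothelial lists than the osteoblast list. The distance grows with any gap in how widely gene and list vary, so it does not give likeness of order alone.

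The 2 sodium-phosphate cotransporter genes of the SLC20 family ran in opposite directions across the libraries. Slc20a2 (ENSMUSG00000037656, chromosome 8, 22476788 to 22569612, plus strand, 5 transcripts) encodes PiT-2, and measured 19.3, 17.0 and 12.4 FPKM in the OE libraries, with 16.0, 8.21 and 8.13 in Ctrl 1, 2 and 3. Ctrl 2 and Ctrl 3 are the lowest, and the library labelled Ctrl 1 lies within the OE range. The difference was 0.59 (SE 0.29, limma adjusted p = 0.559), and 0.89 (SE 0.21, adjusted p = 0.0741) without that library. Slc20a1 (ENSMUSG00000027397, chromosome 2, 129198764 to 129211616, plus strand, 8 transcripts) encodes PiT-1, a phosphate carrier that most cell types express. It measured 16.1, 15.0 and 31.2 FPKM in the OE libraries, with 15.9, 20.7 and 24.4 in Ctrl 1 to 3. OE 3 was the highest and Ctrl 2 and Ctrl 3 followed, so the groups overlap fully and the difference was -0.03 (SE 0.30, adjusted p = 0.979), or -0.19 without the library labelled Ctrl 1. Its sign turned to 0.0635 with trimmed-mean scaling, to 0.0703 with scaling without marrow and muscle genes, and to between 0.11 and 0.15 without OE 1, OE 2 or Ctrl 3.

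Mgp (ENSMUSG00000030218, chromosome 6, 136872435 to 136875823, minus strand, 2 transcripts) encodes matrix Gla protein, a small secreted inhibitor of calcification in arteries and cartilage. It measured 149.7, 189 and 90.4 FPKM in the OE libraries, with 167, 111 and 85.7 in Ctrl 1, 2 and 3. Ctrl 3 and OE 3 are the lowest and lie close together, so neither group is set apart. The difference was 0.23 (SE 0.34, limma adjusted p = 0.82), with group means of 143 ± 49.7 and 121 ± 41.5 FPKM (SD, n = 3), and it was 0.48 without the library labelled Ctrl 1 and -0.0042 without OE 2. Cells of vascular smooth muscle and cartilage also make Mgp: the summed markers of smooth muscle, 5 genes, were 14.7 to 36.8 FPKM in the OE libraries, with 11.8 to 32.6 in Ctrl. The part of either cell type in the Mgp values was not tested.

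The genes of phosphate hormone control split apart. Phex (ENSMUSG00000057457, chromosome X, 157162075 to 157415312, minus strand, 3 transcripts) encodes a membrane endopeptidase of osteoblasts and osteocytes whose loss causes X-linked phosphate wasting with high FGF23. It measured 33.5, 21.3 and 16.2 FPKM in the OE libraries, with 17.8, 1.01 and 1.54 in Ctrl 1, 2 and 3. The groups overlap through OE 3 and the library labelled Ctrl 1 alone. The difference was 2.37 (SE 0.82, unadjusted p = 0.0243, limma adjusted p = 0.554), and 3.39 (SE 0.31, adjusted p = 0.00445) without that library. Because Phex is X-linked, the Y-linked gene Ddx3y is given beside it: it measured 3.42, 0.0183 and 14.8 FPKM in the OE libraries and 5.12 in the one labelled Ctrl 1, and was listed at 0 in Ctrl 2 and Ctrl 3. The part of animal sex in the Phex values was not tested.

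Fgf23 was not high where osteocyte genes were high. The gene (ENSMUSG00000000182, chromosome 6, 127072902 to 127081408, plus strand, 1 transcript with 3 exons) measured 0.853, 1.09 and 11.6 FPKM in the OE libraries, with 1.23, 4.39 and 5.20 in Ctrl 1, 2 and 3. OE 3 is the highest and OE 1 the lowest of all 6 libraries, so the OE group spans the whole range. The difference was -0.20 (SE 0.78, limma adjusted p = 0.939), and -1.10 (SE 0.45, adjusted p = 0.622) without OE 3. Without the library labelled Ctrl 1 it was -0.66 (SE 0.81, adjusted p = 0.739). Leaving out OE 1, OE 2 or Ctrl 3 turned it to 0.29, 0.20 and 0.07. The mean log2(FPKM + 1) of 6 osteocyte markers, among them Dmp1 and Mepe, was 5.47, 4.39 and 3.72 in OE and 4.93, 2.34 and 2.39 in Ctrl 1, 2 and 3. The same mean over 6 erythroid markers was 5.28, 5.71 and 9.75 in OE and 5.46, 8.09 and 7.35 in Ctrl. All 6 erythroid markers were highest in OE 3, and all 6 were higher in Ctrl 2 and Ctrl 3 than in OE 1, OE 2 and the library labelled Ctrl 1, which is the order of Fgf23 and Slc20a1. Summed, these markers held 975 to 33688 FPKM over the OE libraries, with 1189.6 to 6927 over Ctrl, none listed at 0. The mean of 5 macrophage markers ran the same way: it was 4.03, 4.07 and 5.03 for OE 1 to 3, beside 4.09, 4.77 and 4.74 for Ctrl 1 to 3. Their sums were 141 to 243 FPKM for OE and 152 to 195 for Ctrl, none listed at 0. Of the 5, 4 were higher in Ctrl 2 and Ctrl 3 than in OE 1, OE 2 and the library labelled Ctrl 1. Only 3 of the 5 were highest in OE 3. Cd68 ran otherwise, at 89.6, 84.5 and 68.2 FPKM in OE 1 to 3 and 93.1, 65.2 and 57.5 in Ctrl 1 to 3. By root-mean-square distance of centred log2 levels, Slc20a1 lay 0.121 from the macrophage list and 1.29 from the erythroid list. Fgf23 lay 0.617 and 0.67 from these lists. The distance also grows with a gap in range: the log2 level of Slc20a1 ranged over 1.01, and the erythroid mean ran from 5.28 to 9.75. It therefore does not show which list is nearer in order. The part of erythroid cells or macrophages in the Fgf23 and Slc20a1 values was not tested.

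Galnt3 (ENSMUSG00000026994, chromosome 2, 66082766 to 66124994, minus strand, 4 transcripts) encodes the enzyme that adds sugar to FGF23 and so protects the intact hormone from cleavage. It measured 8.55, 8.08 and 4.39 FPKM in the OE libraries, with 7.58, 5.67 and 6.17 in Ctrl 1, 2 and 3. OE 3 is the lowest library for Galnt3 and the highest for Fgf23, its substrate. The difference was 0.06 (SE 0.25, limma adjusted p = 0.94), or 0.17 without the library labelled Ctrl 1, and its sign turned in 3 of the 6 single omissions, to between -0.0145 and -0.0862.

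**Figure D2:**
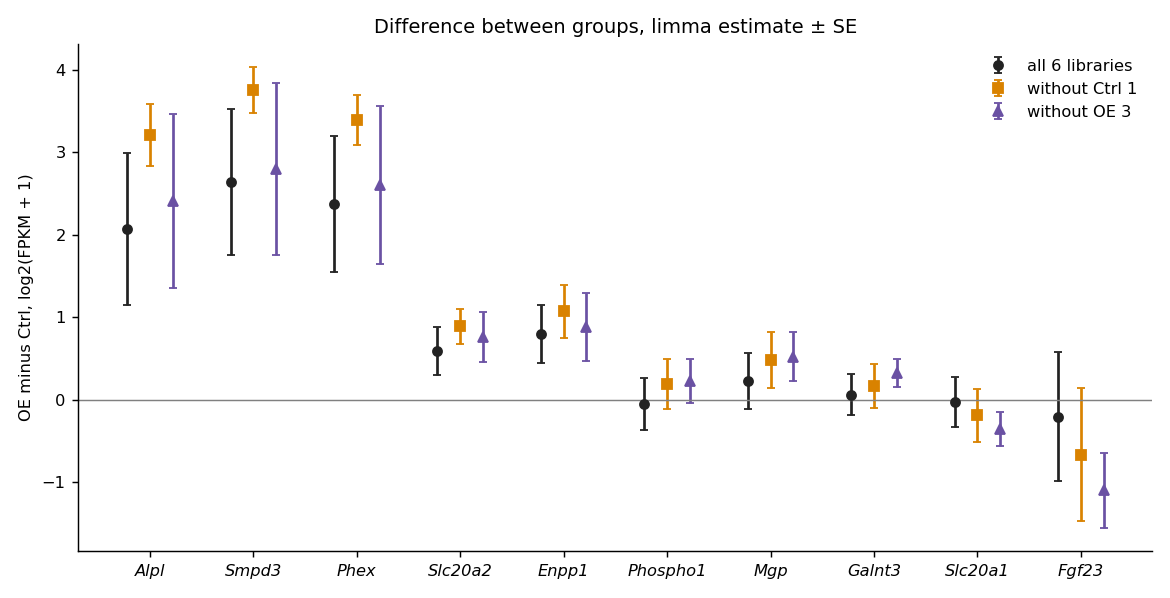
Limma estimate of OE minus Ctrl in log2(FPKM + 1) with its SE for the 10 genes, with all 6 libraries in black, without the library labelled Ctrl 1 in orange and without OE 3 in purple. Alpl, Smpd3 and Phex lie above 2 in black and above 3 in orange, and the other 7 genes lie below 1 with all libraries.

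Leaving out the library labelled Ctrl 1 brought 3 of 10 members past an adjusted p of 0.05, Alpl, Smpd3 and Phex, all higher in OE, where limma called 4.25% of all genes higher. The fit then compares OE with Ctrl 2 and Ctrl 3 alone, the libraries with the lowest osteoblast, osteocyte and cartilage markers, so group and marker level cannot be told apart in it. The low levels were not limited to bone and cartilage. Skeletal muscle markers, 5 genes, summed to 147 and 216.5 FPKM in Ctrl 2 and Ctrl 3 and to 777 to 1009 in the other 4 libraries. Osteoclast markers, 6 genes, summed to 1029 and 991 FPKM there, beside 1295 to 3706, and 5 of the 6 were lowest there. The exception was Mmp9, at 726 and 737 FPKM there and 400 in OE 3. The smooth muscle list was lowest there too. The endothelial list summed to 48.1 and 49.2 FPKM there, close to 51.7 in OE 3, and only 2 of its 5 markers were lowest there. Of 5 B cell markers 4 were lowest there, Cd79a being the exception, but 0 of the 7 neutrophil and 0 of the 6 erythroid markers. The Y-linked gene Ddx3y was listed at 0 in Ctrl 2 and Ctrl 3, beside 3.42, 0.0183 and 14.8 FPKM in OE 1 to 3. The part of animal sex in the calls without the library labelled Ctrl 1 was not tested. With trimmed-mean scaling as well, the count was again 3, with 3.70% of all genes called higher. Limma array weights, which weigh each library by its agreement with the fit, called 5 members higher, adding Enpp1 (adjusted p = 0.0429) and Slc20a2 (adjusted p = 0.037), beside 8.18% of all genes. A library unlike its own group counts for less in that fit. Alpl, Smpd3 and Phex then differed by 3.25, 3.77 and 3.51, near the 3.21, 3.75 and 3.39 found without the library labelled Ctrl 1. The weights are therefore no separate check. Leaving out OE 3 as well as the library labelled Ctrl 1 was chosen after the values were seen. It called Alpl, Smpd3, Phex and Slc20a2 higher, where 7.92% of all genes were. It called Fgf23 lower (-1.55, SE 0.18, limma adjusted p = 0.0027), where 3.48% were, beside -0.20 with all 6 libraries. OE 3, the highest library for Fgf23, is then gone. Erythroid markers averaged 5.28 and 5.71 in OE 1 and OE 2, and 8.09 and 7.35 in Ctrl 2 and Ctrl 3. Group and erythroid marker level cannot be told apart there.

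**Figure D3:**
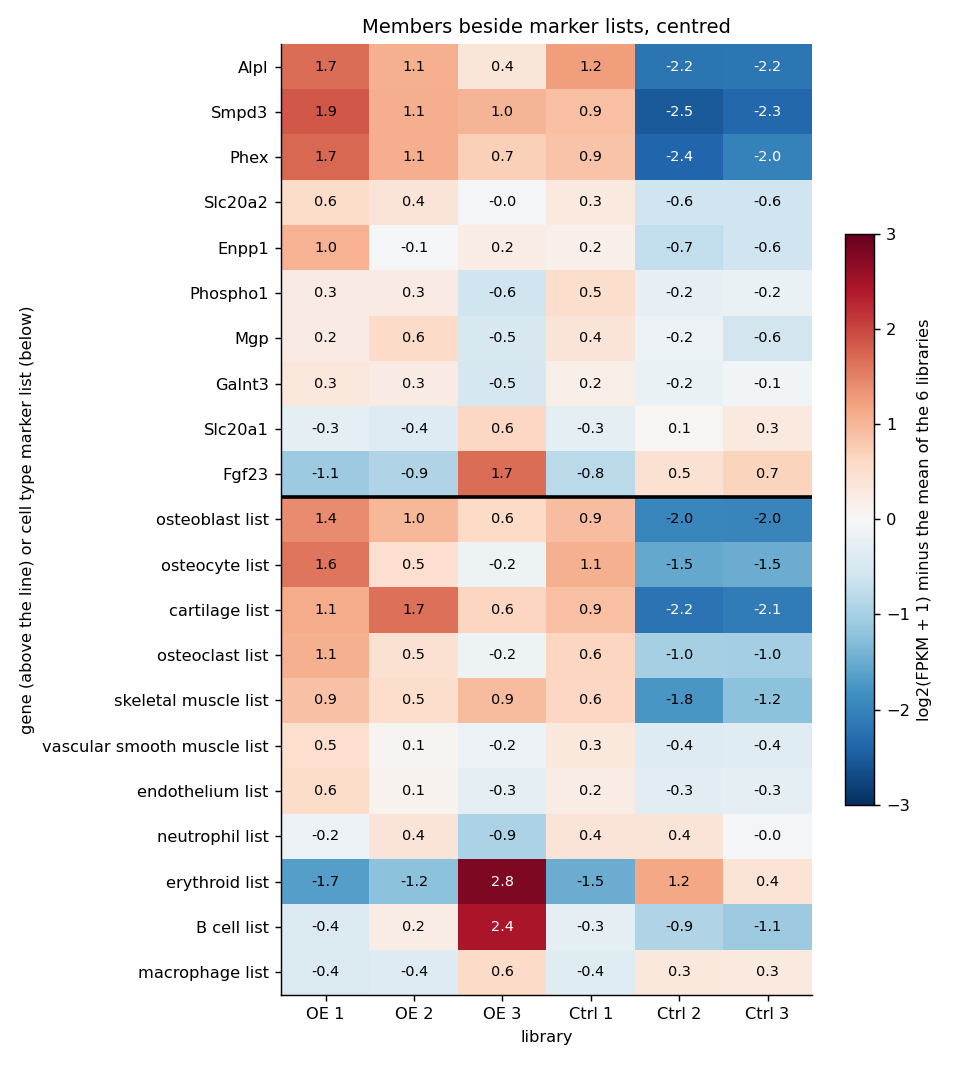
Level of each gene (above the line) and mean level of each marker list (below it) in log2(FPKM + 1) minus its mean over the 6 libraries, from blue for low to red for high. Alpl, Smpd3 and Phex share the dark blue of the osteoblast and cartilage lists in Ctrl 2 and Ctrl 3, and Fgf23 shares the red of the erythroid list in OE 3.

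Ratios between members within a library do not depend on how that library was scaled. The Phospho1 level was 1.11, 1.71 and 1.56 times that of Alpl in OE 1 to 3, but 1.82, 12.5 and 12.7 times in Ctrl 1 to 3. All OE values lay below all Ctrl values (log2 difference -2.20, exact two-sided permutation p = 0.1, 0.233 after Benjamini-Hochberg over 7 ratios), as did the ratio to Alpl of 3.35% of all genes. An exact p of 0.1 is the smallest that 3 against 3 libraries allow. Smpd3, whose product feeds PHOSPHO1, reached 0.222, 0.126 and 0.218 of the Phospho1 level in OE, and 0.0922, 0.00761 and 0.00931 in Ctrl 1, 2 and 3 (log2 difference 3.29, exact p = 0.1, adjusted 0.233). For ratios to Phospho1 no share of all genes was taken. The FPKM of Smpd3 by itself already set OE above Ctrl without overlap, an order found in 4.59% of all genes. Phospho1 itself differed by only -0.05, so this ratio largely repeats the Smpd3 levels. Phex to Alpl was 0.205, 0.201 and 0.251 in OE and 0.148, 0.0978 and 0.148 in Ctrl, with no overlap (log2 difference 0.75, exact p = 0.1, adjusted 0.233). With 1 FPKM added to each gene that difference was 0.30 (exact p = 0.3) and the groups overlapped, Phex being near 1 FPKM in Ctrl 2 and Ctrl 3. With nothing added, all OE above all Ctrl was found for the ratio to Alpl of 0.197% of all genes. The pyrophosphate balance, Enpp1 to Alpl, was 0.0732, 0.0478 and 0.0979 in OE 1 to 3, and 0.0504, 0.269 and 0.304 in Ctrl 1 to 3. The groups overlap through the library labelled Ctrl 1 (log2 difference -1.20, exact p = 0.3, adjusted 0.3). Slc20a1 to Slc20a2 was 0.831, 0.879 and 2.52 in OE and 0.991, 2.52 and 3.01 in Ctrl (log2 difference -0.68, exact p = 0.2, adjusted 0.3). Galnt3 to Alpl and Mgp to Alpl overlapped too (exact p = 0.3 and adjusted 0.3 for each). Without the library labelled Ctrl 1 the log2 differences were -3.13 for Phospho1 to Alpl, 4.44 for Smpd3 to Phospho1, 0.85 for Phex to Alpl, -2.03 for Enpp1 to Alpl, -1.17 for Slc20a1 to Slc20a2, -3.14 for Galnt3 to Alpl and -2.84 for Mgp to Alpl, each with an exact p of 0.2, the smallest that 3 against 2 allow.

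**Figure D4:**
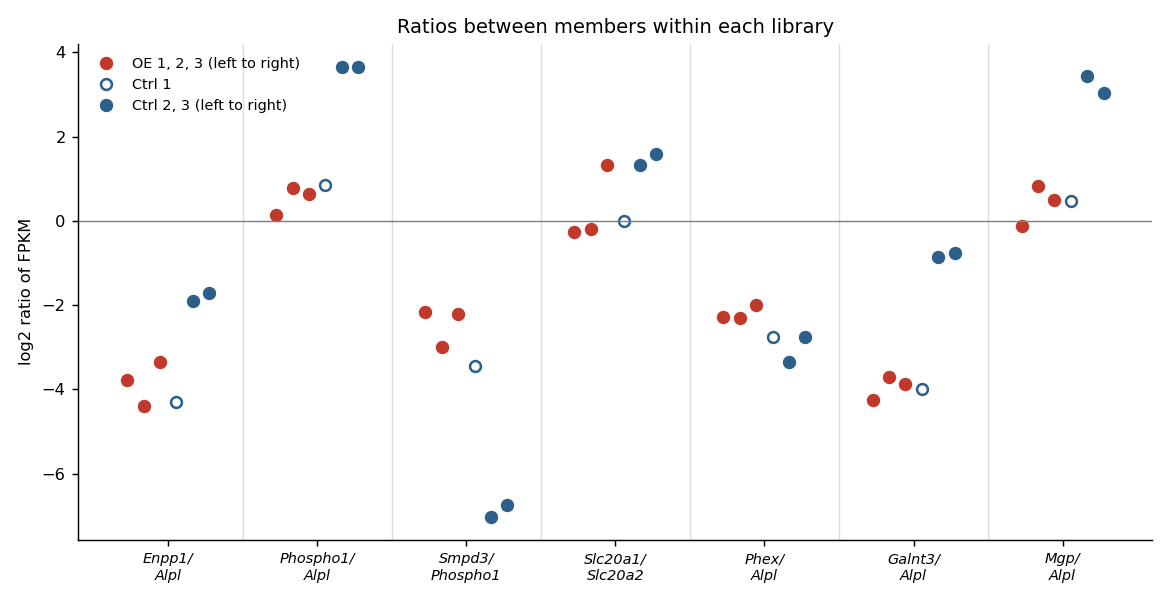
Log2 of the ratio of FPKM for 7 pairs of members in each library, OE in red, Ctrl in blue, the library labelled Ctrl 1 as an open circle. That library sits near OE in the Phospho1 to Alpl, Galnt3 to Alpl and Mgp to Alpl ratios, and Phex to Alpl is the ratio in which it sits with Ctrl 3, at 0.148.

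The members were also set against 10 bone genes outside the list, among them Bglap, Ibsp, Sp7 and Runx2, by taking the log2(FPKM + 1) of a member minus the mean of these genes. Alpl kept nearly the same distance in every library, 0.62 to 1.17, although its own log2 level ranged over 3.87. Its group difference of 0.09 (exact p = 1) changed sign when OE 1 or Ctrl 2 was left out and with a pseudocount of 0.1. Smpd3 lay at -0.88, -1.19 and -0.90 in OE and at -1.35, -1.88 and -1.72 in Ctrl 1, 2 and 3. Phex lay at -1.14, -1.30 and -1.31 in OE and at -1.52, -1.86 and -1.53 in Ctrl. In both genes every OE library, also against the library labelled Ctrl 1, lay above every Ctrl library, an order that 0.0739% of all genes showed. The differences were 0.66 for Smpd3 and 0.39 for Phex, each with an exact p of 0.1 and 0.25 adjusted over 10 members. Without the library labelled Ctrl 1 they were 0.81 and 0.45, each with an exact p of 0.2. The 9 genes in that order, named after their values were seen, also held Slc13a5, a citrate transporter, the collagen genes Col5a2, Col10a1 and Col11a1, the collagen crosslinking enzyme Lox, the proteoglycan Lum, and Prss35. With the osteocyte list as the reference 19 genes showed it, and Smpd3 and Phex were again among them, with differences of 1.33 and 1.06. That reference also moved the difference of Alpl to 0.76 (exact p = 0.2), so its near-constant distance holds for the bone genes and not for the osteocyte genes. Col10a1 marks hypertrophic cartilage, and it measured 91.2, 138 and 68.6 FPKM in the OE libraries, with 64.1, 0.406 and 0.218 in Ctrl 1, 2 and 3. The part of cartilage in the Smpd3 and Phex values was not tested.

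Against the same bone genes, Phospho1 was lower in every OE library than in every Ctrl library, at 1.26, 1.74 and 1.25 against 2.02, 4.15 and 4.18 (exact p = 0.1, adjusted 0.25), an order that 22.4% of all genes showed. Against the osteocyte list its difference was -1.36 from -2.03 and the groups overlapped (exact p = 0.3). Mgp, Galnt3, Slc20a1, Slc20a2, Enpp1 and Fgf23 had negative differences of -1.75, -1.92, -2.01, -1.39, -1.19 and -2.18, each with overlapping groups and an exact p of 0.2 or 0.3 (adjusted 0.25 to 0.333). Against the osteocyte list these were -1.08, -1.24, -1.33, -0.71, -0.51 and -1.51 in the same order. Without the library labelled Ctrl 1, and against the bone genes, they were -2.46, -2.77, -3.13, -2.05, -1.87 and -3.60, and -2.75 for Phospho1 and 0.27 for Alpl. Slc20a2 and Enpp1 had negative differences although their own levels were lowest in Ctrl 2 and Ctrl 3. Each value here is a gene's own group difference less that of the reference genes, which were higher in OE on average. A gene equal in both groups is thus negative by construction, so these signs do not show lower levels in OE. The own differences with all 6 libraries were 0.23 for Mgp, 0.06 for Galnt3 and -0.03 for Slc20a1. They were 0.59 for Slc20a2, 0.79 for Enpp1, -0.20 for Fgf23 and -0.05 for Phospho1.

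**Figure D5:**
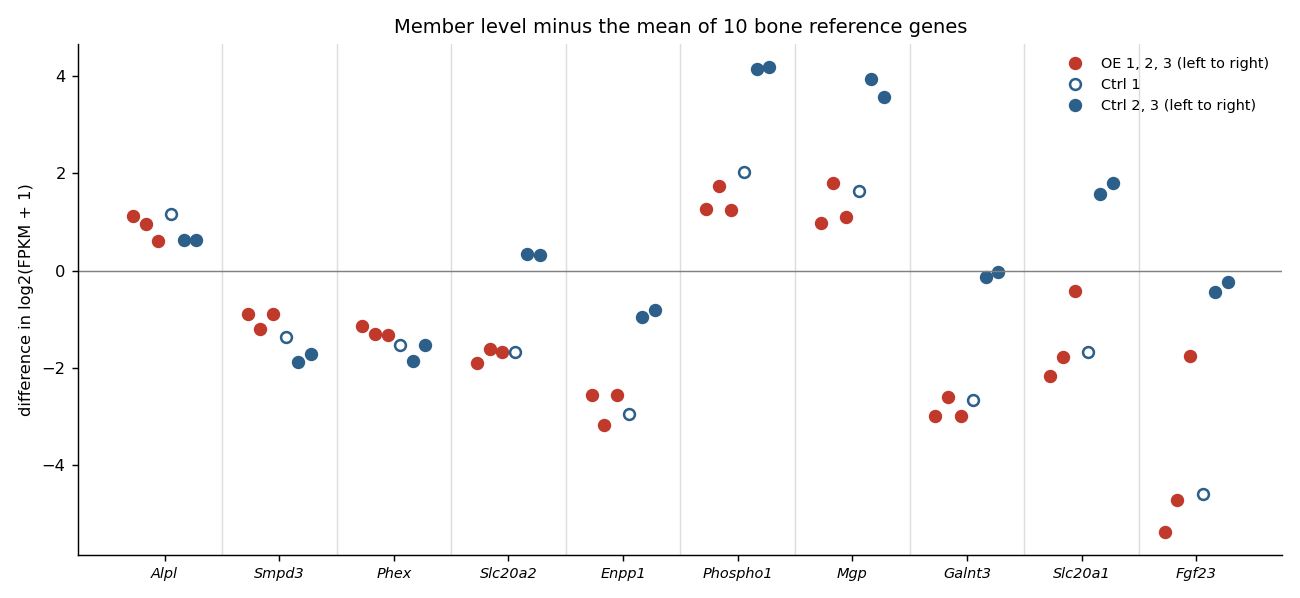
Level of each member minus the mean of 10 bone reference genes, in log2(FPKM + 1), for each library, OE in red, Ctrl in blue and the library labelled Ctrl 1 as an open circle. Alpl stays within 0.62 to 1.17, Smpd3 and Phex are higher in all OE libraries, and Phospho1 reaches 4.15 and 4.18 in Ctrl 2 and Ctrl 3.

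For each member the genes with the most similar profile were taken by the root-mean-square distance of centred log2(FPKM + 1) over the 6 libraries, among genes with a mean of at least 5 FPKM. Nearest to Alpl were the matrix protease gene Mmp2 (distance 0.057) and P4ha2, a collagen prolyl hydroxylase subunit (0.118). Smpd3 was nearest to the fibrillar collagen gene Col5a2 (0.170) and to Slc13a5 (0.186), and Phex was nearest to Slc13a5 (0.138) and Lum (0.169). Nearest to Enpp1 were Enah (0.0687) and Antxr1 (0.0761), and nearest to Slc20a2 were Calu (0.0772) and Pofut2 (0.083). Fgf23 was nearest to Tal1, a transcription factor of erythroid and megakaryocytic cells (0.132), and to Grap2, an adaptor protein of blood cells (0.157). Tal1 measured 5.58, 5.87 and 34.0 FPKM in the OE libraries, with 5.60, 17.6 and 16.9 in Ctrl 1, 2 and 3. Slc20a1 was nearest to Pml (0.0801) and Arrdc3 (0.0846). Phospho1 was nearest to Tcirg1, an osteoclast proton pump subunit (0.0446), and Hyou1, a chaperone of the endoplasmic reticulum (0.0643). Mgp was nearest to Ostc (0.085) and Nme2 (0.0913), and Galnt3 to Trp53inp2 (0.0194) and Rin2 (0.0637). Distances are shorter for genes that vary little, so they do not rank likeness between members.

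Other genes of the same pathways came from 7 lists with 51 genes, of which 42 were tested. None passed an adjusted p of 0.05 in either direction with all 6 libraries, 4 were higher at an unadjusted p under 0.05, where 4.12% of all genes were, 0 were lower, and the median difference was 0.09 beside -0.04 for all genes. Ank, which exports ATP and with it pyrophosphate from the cell, led the pyrophosphate list at 36.1, 20.4 and 29.8 FPKM in the OE libraries, with 23.9, 14.0 and 12 in Ctrl 1, 2 and 3 (limma difference 0.78, SE 0.30, unadjusted p = 0.0378). Nt5e, the ectonucleotidase that turns AMP into adenosine, measured 4.64, 5.17 and 3.56 in OE and 4.33, 2.01 and 2.26 in Ctrl. The list had 4 positive and 2 negative members, with a median of 0.49.

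In the phosphocholine and sphingomyelin list 6 of 10 were positive, with a median of 0.06. Enpp6, a choline phosphodiesterase, measured 10.3, 6.43 and 6.00 FPKM in the OE libraries, with 6.04, 3.95 and 5.26 in Ctrl 1 to 3, and Enpp2, which makes lysophosphatidic acid, 4.94, 4.50 and 4.36 against 5.94, 1.03 and 1.09. Of the other phosphate carriers, Xpr1, the phosphate exporter, was tested, at 25.3, 11.6 and 12.4 FPKM in the OE libraries, with 10.02, 10.3 and 15.4 in Ctrl. The kidney and gut carriers Slc34a1, Slc34a2 and Slc34a3 fell under the filter.

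The FGF23 and vitamin D list had 6 of 7 tested members positive, with a median of 1.24. Vdr, the vitamin D receptor, measured 20.4, 11.5 and 13.0 FPKM in the OE libraries, with 12.4, 3.28 and 4.64 in Ctrl 1 to 3 (limma difference 1.18, SE 0.43, unadjusted p = 0.0304). Dmp1, a matrix protein whose loss raises FGF23, differed by 1.94 (SE 0.87, adjusted p = 0.554). Furin, a protease that cleaves FGF23, was the single negative member at 35.6, 31.5 and 24.1 in OE and 36.0, 35.8 and 44.1 in Ctrl. All its OE values lay below all Ctrl values, as in 8.97% of all genes. Kl, Cyp24a1 and Cyp27b1, which act mainly in the kidney, fell under the filter.

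All 6 tested members of the list of mineral-binding proteins and Gla carboxylation were positive, with a median of 1.19. Ibsp, which nucleates mineral, differed by 1.63 (SE 0.58, unadjusted p = 0.026), and Bglap, osteocalcin, by 3.40 (SE 1.33, unadjusted p = 0.0384). Bglap lies beside near-identical copies, so its value is uncertain. Ggcx, the carboxylase that activates MGP, and Ahsg were listed at 0 in all 6 libraries. Whether the Ggcx row was quantified properly was not tested, so its listed 0 does not show that the gene is silent in these femurs. Genes for GPI anchoring and zinc loading of alkaline phosphatase did not follow Alpl: 8 of 9 were negative, with differences from -0.31 to 0.06. Their median was -0.21, beside -0.04 for all genes, and no share of all genes by sign was taken. Pgap3, Slc30a6 and Slc30a7 differed by only -0.006, -0.04 and -0.05. In the same list Pigv measured 9.10, 10.1 and 7.34 FPKM in the OE libraries, with 10.1, 11 and 10.6 in Ctrl, and Piga 10.9, 10.98 and 8.27 against 9.88, 14.7 and 13.7. Of 3 annexins of matrix vesicles 2 were positive, with Anxa2 at 425, 580.1 and 242 FPKM in the OE libraries, with 629.8, 543 and 421 in Ctrl, and Anxa5 at 138, 156 and 117 against 169, 121 and 90.3. Without the library labelled Ctrl 1, limma called 9 of the 42 higher, where 4.25% of all genes were, and 0 lower: Enpp2, Dmp1, Fgfr1, Vdr, Pth1r, Vkorc1, Bglap, Ibsp and Spp1.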

How the data were processed

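Femur RNA was sequenced in 6 libraries, 3 OE and 3 Ctrl, grouped and numbered by the sample titles. The authors deposited FPKM per gene, per the file headers. TopHat2, Cufflinks and DESeq are named with mm10 in the submitters' processing notes, and their roles and versions are not stated. Of 22824 rows, 21606 carry an Ensembl identifier, and 21172 of these matched a symbol of GENCODE M21 on GRCm38, the assembly mm10 names. No counts were held, so depth is unknown beyond relative steps.

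The 12177 genes that reached 1 FPKM in 3 or more libraries were fitted with limma 3.58.1 in R 4.3.3 (trend) on log2(FPKM + 1), a scale that understates changes of low genes. Benjamini-Hochberg adjustment covered every gene tested, with a threshold of 0.05. Ratios and distances from bone genes were compared by exact two-sided permutation tests in scipy 1.17.1. Simulated data with known changes were used to test the fit. Alternatives were scaling, filters, pseudocount, trend, array weights, a replicate block and single omissions. Joint omission of the libraries labelled Ctrl 1 and OE 3, and trimmed-mean scaling without Ctrl 1, were chosen after seeing the data. Members and lists were chosen with earlier results of these data known. Named genes are the members, Wnt7b, the 2 smallest p in each pathway list, and the 2 nearest profiles per member; others are named as exceptions or after their values were seen.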

Additional observations from a re-analysis of the deposited data

How the results depend on the processing

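With all 6 libraries at equal weight and no array weights, 0 genes and 0 members were called under no filter, a filter of 5 FPKM, a pseudocount of 0.1, limma without trend, and scaling by a trimmed mean or without marrow and muscle genes. Unadjusted, 999 genes had p under 0.05. Array weights called 1394 genes and 5 members. Single omissions gave 0 to 597 genes and 0 to 3 members, above 0 only without the library labelled Ctrl 1. Omitting OE 3 as well as the library labelled Ctrl 1 called 1388 genes and 5 members, and omitting the latter under trimmed-mean scaling called 512 and 3. The cause was not tested. The filter of 5 FPKM removed Fgf23.

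Phospho1 changed sign with trimmed-mean scaling (0.0432), removal of marrow and muscle genes from the scaling (0.0497), array weights (0.31), both omissions together (0.47), and the omission of Ctrl 1 under trimmed-mean scaling (0.29). Slc20a1 did so with trimmed-mean scaling (0.0635) and that removal (0.0703). Over single omissions Phospho1 ran from -0.20 to 0.23, Slc20a1 from -0.35 to 0.15, Fgf23 from -1.10 to 0.29, Mgp from -0.0042 to 0.52 and Galnt3 from -0.0862 to 0.33, with each of these changing sign. Alpl ran from 1.496 to 3.21, Smpd3 from 2.04 to 3.75, Phex from 1.77 to 3.39, Enpp1 from 0.47 to 1.07 and Slc20a2 from 0.44 to 0.89, with no change of sign. Alpl minus the bone genes ran from -0.0189 to 0.27 over single omissions and was -0.0703 with a pseudocount of 0.1. No other ratio or distance from the bone genes changed sign in any alternative, and none could pass, since the smallest exact p was 0.1 with all libraries and 0.2 with one left out.

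Same-numbered libraries deviated together with correlations of 0.44, 0.09 and 0.31, while OE 2 correlated best with the library labelled Ctrl 1 (0.14) and OE 3 with Ctrl 2 (0.42), so the numbers were not taken as pairs. With the replicate number as a block, 0 genes and 0 members were called.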

Other observations

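The profiles ranked 3 to 5 by likeness to Fgf23, named after their values were seen, were Ube2o, a ubiquitin enzyme of maturing red cells (distance 0.161), C530008M17Rik (0.170) and Tubb1, the beta tubulin of platelets (0.185). Ube2o measured 7.81, 7.15 and 48.6 FPKM in the OE libraries, with 7.38, 20.2 and 19.1 in Ctrl 1, 2 and 3. C530008M17Rik measured 3.36, 3.55 and 20.2 FPKM in the OE libraries, with 2.94, 10.6 and 11.6 in Ctrl 1, 2 and 3. Tubb1 measured 17.2, 24.1 and 107 FPKM in the OE libraries, with 25.0, 63.9 and 73.0 in Ctrl 1, 2 and 3. All 3 were highest in OE 3, with Ctrl 2 and Ctrl 3 next.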
